A study of Homo sapiens with 4 samples.

Results

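Glutathione synthesis, glutathione turnover and the transsulfuration route to cysteine were followed through 10 genes, GCLC, GCLM, GSS, GSR, SLC7A11, CHAC1, CTH, CBS, GGCT and GPX4. The members were the 21 probe sets, of 54613 on the array, that the platform annotation gives to exactly 1 of these genes. They were read in cells of the KYSE170 line, which derives from a human squamous carcinoma of the oesophagus, with 2 arrays of cells given EDHB (ethyl-3,4-dihydroxybenzoate) at 50 µg/ml for 12 h and 2 arrays of cells left untreated. All cultures grew in RPMI 1640 with fetal bovine serum and antibiotics. KYSE170 is 1 line, and whether separate cultures were used for the replicates is not labelled, so p-values reflect only array-to-array spread, which may be technical. EDHB inhibits prolyl hydroxylases, the iron-dependent enzymes that mark hypoxia-inducible factors for degradation.

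Glutathione is a tripeptide of glutamate, cysteine and glycine and the main thiol of the cytosol. Cysteine usually limits its synthesis, and cells obtain it as cystine through the antiporter that SLC7A11 forms or from methionine through CBS and CTH. Many of these genes are known targets of NRF2, the transcription factor of the antioxidant response, or of ATF4, a transcription factor that amino acid shortage and other stresses raise.

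The deposited values were linear RMA intensities, with array medians between 23.3 and 23.5, and were turned into log2 levels. The rows of replicate 2 were ordered differently from those of replicate 1, and their order was restored from the levels of the untreated arrays alone for 54459 probe sets, 17 of the 21 members among them. The 4 members not restored, 2 of GCLC, 1 of CTH and 1 of CBS, are given within replicate 1, which needs no restoring. A second restoring that also compared the EDHB levels placed all 21, but it favours agreement between the EDHB arrays, and its values are named as such. Of 7 squamous epithelial markers, 4 had a restored probe set. CDH1, DSG3 and KRT5 lay above the median probe set (4.54) on every array, whereas KRT14 lay between 3.34 and 3.95 with EDHB and between 3.19 and 4.30 in untreated cells, below it. The summed log2 level of these 4 markers was 26.7 and 28.2 on the EDHB arrays and 26.1 and 27.7 on the untreated arrays. Of 5 markers of other cells, PTPRC (leukocytes), ALB (hepatocytes) and COL1A2 (fibroblasts) averaged below the median probe set, and COL1A1 (fibroblasts) and PECAM1 (endothelium) above it. In a bulk culture, fewer cells of a type and less RNA per cell cannot be told apart.

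The upstream DNA of the genes that differed most is shown because NRF2 and ATF4 are known to act through short sequences near such starts. RefSeq promoter windows in GRCh38.p14 were matched for 6 members, GCLC, GCLM, CHAC1, CTH, CBS and GPX4, and the 250 bases before the start were searched. Windows were not matched for GSS, GSR, SLC7A11 and GGCT. The searched letters were TGACNNNGC, the core of the antioxidant response element, TGATGNAA, the core of the C/EBP-ATF response element, and ACGTG, the core of the hypoxia response element, on both strands. Capitals mark matches. The windows lie at chr6:53545102-53545351 (minus strand) for GCLC, chr1:93909431-93909680 (minus strand) for GCLM, chr15:40953221-40953470 (plus strand) for CHAC1, chr1:70411018-70411267 (plus strand) for CTH and chr21:43076378-43076627 (minus strand) for the one of 3 CBS windows that held a match.
GCLC: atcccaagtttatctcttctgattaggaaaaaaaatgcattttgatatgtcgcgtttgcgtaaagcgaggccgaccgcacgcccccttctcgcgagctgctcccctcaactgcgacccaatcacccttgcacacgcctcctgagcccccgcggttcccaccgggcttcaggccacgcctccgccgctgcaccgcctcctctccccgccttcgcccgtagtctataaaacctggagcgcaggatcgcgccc
GCLM: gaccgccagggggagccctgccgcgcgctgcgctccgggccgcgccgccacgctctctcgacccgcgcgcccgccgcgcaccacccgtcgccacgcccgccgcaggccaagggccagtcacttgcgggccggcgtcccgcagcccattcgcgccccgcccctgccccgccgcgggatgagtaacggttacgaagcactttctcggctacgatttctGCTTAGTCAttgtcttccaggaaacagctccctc
CHAC1: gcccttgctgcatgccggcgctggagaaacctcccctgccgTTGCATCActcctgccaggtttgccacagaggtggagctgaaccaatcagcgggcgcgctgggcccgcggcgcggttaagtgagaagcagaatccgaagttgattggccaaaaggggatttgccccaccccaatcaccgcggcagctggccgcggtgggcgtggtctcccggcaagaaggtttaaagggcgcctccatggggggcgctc
CTH: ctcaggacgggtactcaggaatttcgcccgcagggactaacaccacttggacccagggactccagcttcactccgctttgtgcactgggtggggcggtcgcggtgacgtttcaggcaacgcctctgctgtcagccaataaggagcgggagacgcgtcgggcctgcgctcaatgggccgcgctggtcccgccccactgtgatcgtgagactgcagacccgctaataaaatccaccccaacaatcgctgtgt
CBS: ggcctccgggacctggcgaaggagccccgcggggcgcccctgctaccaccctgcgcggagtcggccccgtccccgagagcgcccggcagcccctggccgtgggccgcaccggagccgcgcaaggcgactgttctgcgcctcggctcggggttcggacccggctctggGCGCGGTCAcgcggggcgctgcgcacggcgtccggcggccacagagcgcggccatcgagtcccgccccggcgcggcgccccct
GCLM held the antioxidant core between 34 and 26 bases before its start, and CBS held it between 83 and 75 bases before. CHAC1 held the C/EBP-ATF core between 209 and 202 bases before its start. GPX4 held the hypoxia core, and the GCLC and CTH windows held none of the 3. Among 35116 promoter windows of the same length, 10.9% held the antioxidant core, 3.14% the C/EBP-ATF core and 18.5% the hypoxia core. These shares are per window, and CBS and GPX4 had 3 windows each, which gave them more chances of a match. A match describes these letters only.

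EDHB was compared with untreated cells to ask which of these genes differed after exposure to the compound. The 3 genes of cysteine supply, both ligase subunits and CHAC1 were higher with EDHB, and the other 4 members lay near their untreated levels. On the brightest restored probe set of each gene, CHAC1, CTH, GCLC, CBS, SLC7A11 and GCLM were 1.42-fold to 2.65-fold higher, whereas GGCT, GPX4, GSR and GSS were 1.00-fold to 1.11-fold. In 7 of 10 genes both EDHB arrays lay above both untreated arrays, where this held for 23.2% of 19751 genes, and in 0 of 10 both lay below, where this held for 22.5%. CHAC1 and CTH were at least 2-fold higher within both replicates, which held for 0.0962% of genes. This share may be too low, because 80 replicate 2 values from the lists changed at least 2-fold were not restored. The median log2 change was 0.62 over the 10 genes (0.54 within replicate 1, 0.62 within replicate 2) and -0.001 over all genes.

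No member passed the threshold of limma with Benjamini-Hochberg adjustment over 19751 genes (adjusted p under 0.05), a threshold that 0.0101% of genes passed as higher and 0% as lower. The members' adjusted p ran from 0.0763 for CTH to 0.985 for GSS, and 6 of 10 had an unadjusted p under 0.05 and were higher, against 8.8% of genes, and 0 were lower, against 7.98%. When limma's prior variance was allowed to follow intensity (the trend fit), CTH (adjusted p = 0.0104), GCLM (0.0233), GCLC (0.0270) and CHAC1 (0.0304) passed as higher, 4 of 10 where 1.07% of genes did. This count became 0 with a replicate block added to the trend fit, where 0 of 19751 genes passed. Without any 1 of the 4 arrays, the lone array of a group is assumed to vary like the others, so only changes are given. These ran from 1.27 to 1.49 for CTH, 0.46 to 0.55 for GCLM, 0.84 to 1.07 for GCLC and 1.17 to 1.64 for CHAC1. An exact permutation test of 2 against 2 arrays cannot give a two-sided p below 0.333. Higher and lower therefore describe values of the members, and a gene passed only where a fit is named.

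**Figure D1:**
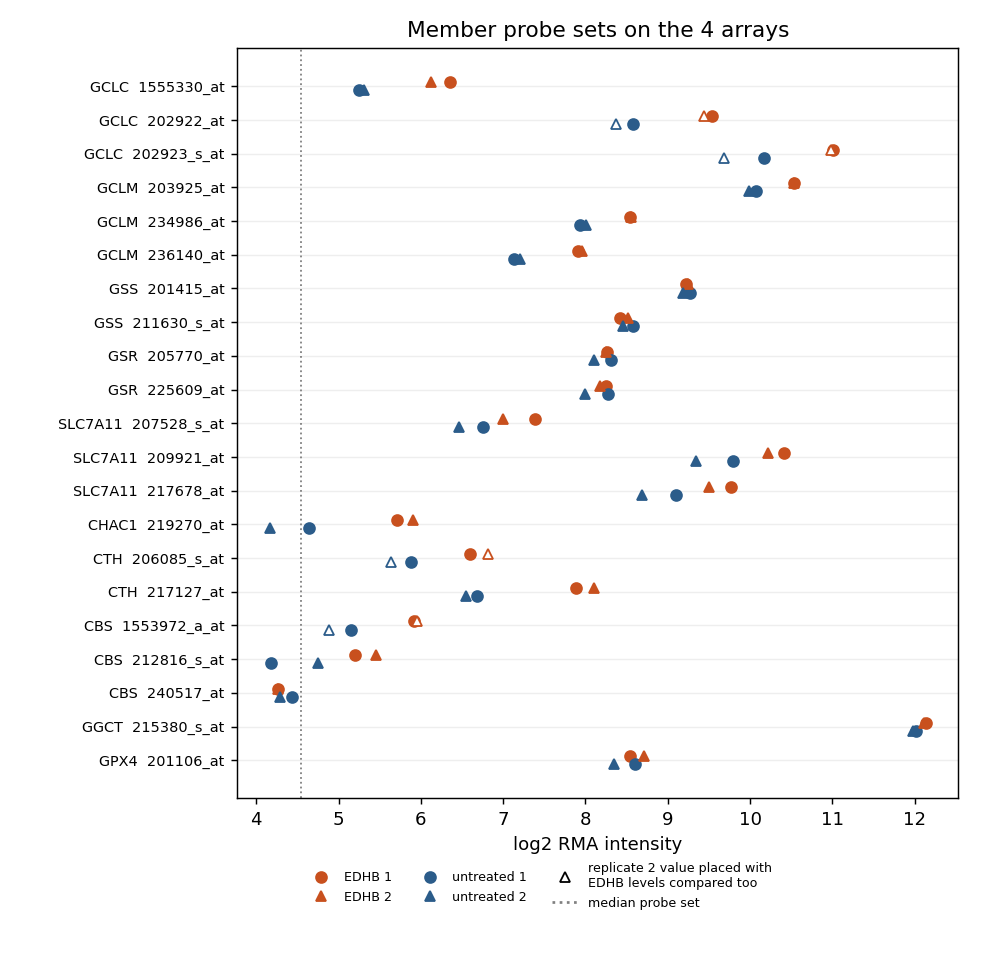
Log2 RMA intensity (horizontal axis) of the 21 member probe sets on the 2 EDHB arrays (orange, upper of each pair) and the 2 untreated arrays (blue, lower), with circles for replicate 1, triangles for replicate 2 and open triangles for replicate 2 values placed with the EDHB levels compared too. On the restored probe sets the orange points of GCLC, GCLM, SLC7A11, CHAC1 and CTH lie to the right of the blue ones. Those of GSS, GSR and GPX4 lie among them. The open triangles come from a restoring that favours agreement between the EDHB arrays, so their direction is not read here.

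The first and rate-limiting step of glutathione synthesis, glutamate-cysteine ligase, was higher in both of its subunits on their restored probe sets. GCLC, the catalytic subunit, had log2 levels of 6.35 and 6.12 on the EDHB arrays against 5.25 and 5.31 on the untreated arrays (probe set 1555330_at). The groups did not overlap, and GCLC was 1.94-fold higher, by 0.96 ± 0.11 (SE) with a 95% interval of 0.69 to 1.23 (limma adjusted p = 0.0856). Its 2 brighter probe sets were not restored, since from the untreated levels alone 2 placements of their replicate 2 values competed, with posteriors of 0.609 and 0.391, and these differ in direction for 202922_at.

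Within replicate 1 those GCLC probe sets were higher by 0.96 (202922_at, 9.53 with EDHB and 8.57 untreated) and by 0.83 (202923_s_at, 11.00 with EDHB and 10.17 untreated). The likelier placement took the replicate 2 values of 202922_at from the list of values at least 2-fold lower, with 6.85 with EDHB, a change of -1.15 within replicate 2 and a mean change over both replicates of -0.10. It gave 202923_s_at 11.84 with EDHB and 10.05 untreated in replicate 2, and a mean change of 1.31, the value of GCLC at a posterior minimum of 0.5 (limma adjusted p = 0.153). The 2 bright GCLC probe sets thus disagree in direction within replicate 2 under that placement.

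With the EDHB levels compared too, the less likely placement was chosen, and the replicate 2 pairs of these GCLC probe sets were 9.44 with EDHB and 8.37 untreated, and 10.98 with EDHB and 9.68 untreated. The mean changes were then 1.02 and 1.07, near the 0.96 of the restored probe set, but this restoring favours agreement between the EDHB arrays, and the untreated levels alone do not settle the direction of 202922_at within replicate 2.

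GCLM, the modifier subunit that raises the ligase's affinity for glutamate, had log2 levels of 10.54 and 10.53 with EDHB against 10.08 and 9.99 in untreated cells (203925_at). The EDHB arrays differed from each other by less than the untreated arrays did, and the groups did not overlap. GCLM was 1.42-fold higher, by 0.50 ± 0.08 (SE), with a 95% interval of 0.30 to 0.70 (limma adjusted p = 0.116). Its 2 dimmer probe sets were higher by 0.57 (234986_at) and 0.77 (236140_at), so that the 3 probe sets of GCLM differed in size and not in direction.

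GSS, the synthetase that adds glycine in the second step, had log2 levels of 9.22 and 9.25 with EDHB against 9.27 and 9.18 in untreated cells (201415_at). The groups overlapped, and the change was 0.01 ± 0.08 (SE), with a 95% interval of -0.20 to 0.21 (limma adjusted p = 0.985). The other GSS probe set, 211630_s_at, differed by -0.05. The upper bound of the GSS interval lay below the lower bound for GCLM (0.30), and the difference between the 2 genes was not tested.

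The gene of cystine import was higher as well. SLC7A11, the cystine-glutamate exchanger whose product pairs with SLC3A2, had log2 levels of 10.41 and 10.21 with EDHB against 9.80 and 9.34 in untreated cells (209921_at). Both EDHB arrays were above both untreated arrays, although the untreated arrays lay apart (9.57 ± 0.32, SD, n = 2). SLC7A11 was 1.67-fold higher, by 0.74 ± 0.17 (SE), with a 95% interval of 0.30 to 1.19 (limma adjusted p = 0.164).

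The other 2 probe sets of SLC7A11 were higher by 0.74 (217678_at) and 0.58 (207528_s_at). Replicate 2 was the lower array of its group in both groups on all 3 SLC7A11 probe sets. Without untreated replicate 2 the change of SLC7A11 was 0.51, and without untreated replicate 1 it was 0.97. SLC3A2, the heavy chain of the exchanger, differed by 0.19 (limma adjusted p = 0.334).

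The transsulfuration genes, which carry sulfur from homocysteine to cysteine, were both higher on their brightest restored probe sets. CTH, the lyase that releases cysteine from cystathionine, had log2 levels of 7.88 and 8.10 with EDHB against 6.68 and 6.54 in untreated cells (217127_at). The groups lay more than 1 log2 unit apart, and CTH was 2.60-fold higher, by 1.38 ± 0.11 (SE), with a 95% interval of 1.10 to 1.66 (limma adjusted p = 0.0763). Its replicate 2 values were placed in the list of values at least 2-fold higher within replicate 2, which fixes their direction, and the change of 1.20 within replicate 1 does not depend on that placement.

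The other CTH probe set, 206085_s_at, was not restored (posterior 0.502) and was higher by 0.72 within replicate 1, with 6.60 with EDHB and 5.88 untreated. In the second restoring it had 6.82 with EDHB and 5.64 untreated in replicate 2, a mean change of 0.95.

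CBS, the synthase that forms cystathionine from homocysteine and serine, had log2 levels of 5.20 and 5.46 with EDHB against 4.18 and 4.75 in untreated cells (212816_s_at). The first untreated value lay below the median probe set, and no detection call was used, so the size is uncertain. CBS was 1.82-fold higher, by 0.86 ± 0.21 (SE), with a 95% interval of 0.32 to 1.41 (limma adjusted p = 0.172). Without untreated replicate 1 the change of CBS was 0.58, without untreated replicate 2 it was 1.15, and with 16 added to the intensities before the log it was 0.56.

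The 3 probe sets of CBS disagreed. The unrestored 1553972_a_at (posterior 0.529) was higher by 0.77 within replicate 1, with 5.92 with EDHB and 5.15 untreated, and in the second restoring by a mean of 0.92. In contrast, 240517_at had 4.26 and 4.26 with EDHB against 4.44 and 4.29 in untreated cells, below the median probe set on every array, and differed by -0.10. The median over the 2 restored CBS probe sets was 0.38 (limma adjusted p = 0.218). With the trend and the second restoring together, CBS was called as higher on 1553972_a_at (trend fit adjusted p = 0.0296). That restoring favours agreement between the EDHB arrays, whose spread enters the p-value, so the call is not independent support.

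**Figure D2:**
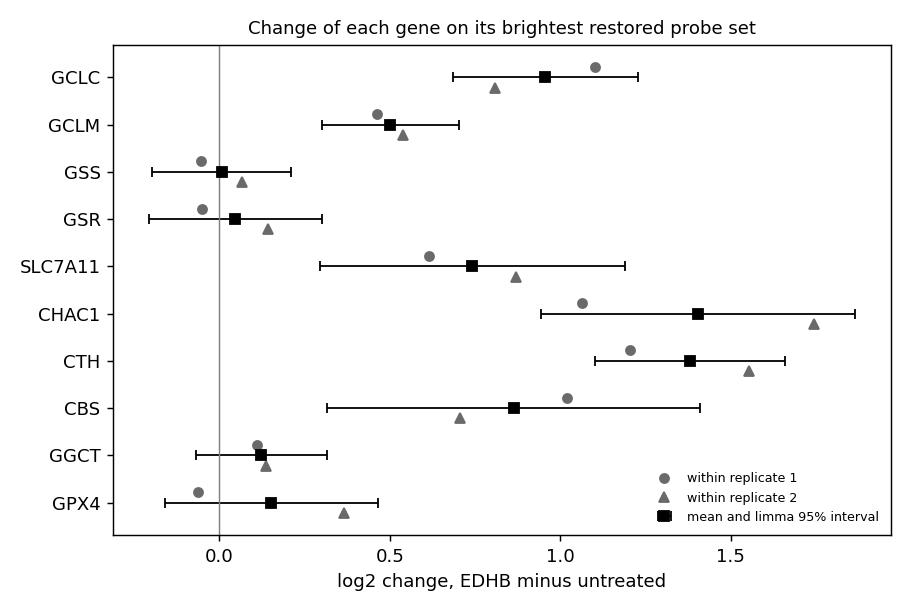
Log2 change of EDHB minus untreated (horizontal axis) for the 10 genes on their brightest restored probe sets, as the mean with its limma 95% interval (squares), within replicate 1 (circles) and within replicate 2 (triangles). The intervals of GCLC, GCLM, SLC7A11, CHAC1, CTH and CBS lie above 0, unadjusted for the number of genes, and those of GSS, GSR, GGCT and GPX4 include 0.

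Of the 2 cyclotransferases among the members, only CHAC1 was more than 2-fold higher. CHAC1, a known ATF4 target that cleaves glutathione itself, had log2 levels of 5.71 and 5.91 with EDHB against 4.64 and 4.17 in untreated cells (219270_at, its only member probe set). CHAC1 was 2.65-fold higher, by 1.40 ± 0.18 (SE), with a 95% interval of 0.94 to 1.86 (limma adjusted p = 0.104). The mean untreated level of 4.40 lay below the median probe set, so the size of this difference is uncertain, and with 16 added to the intensities before the log the change was 0.95.

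The replicate 2 values of CHAC1 were placed in the list of at least 2-fold higher values with a posterior of 0.954, just above the minimum of 0.95. The change of CHAC1 within replicate 1 alone was 1.06. With the EDHB levels compared too, the same pair of values was placed at CHAC1 with a posterior of 1.00. That restoring favours agreement between the EDHB arrays, so the higher posterior is not independent support for the placement.

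GGCT, the cyclotransferase that acts on gamma-glutamyl amino acids, had log2 levels of 12.13 and 12.11 with EDHB against 12.02 and 11.97 in untreated cells (215380_s_at). The groups did not overlap, and the difference was small, at 0.12 ± 0.07 (SE), with a 95% interval of -0.07 to 0.32 (limma adjusted p = 0.487).

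Recycling and use of glutathione showed smaller values. GSR, the reductase that regenerates glutathione from its disulfide with NADPH, had log2 levels of 8.26 and 8.25 with EDHB against 8.31 and 8.10 in untreated cells (205770_at). The groups overlapped on this GSR probe set (0.05 ± 0.10, SE, with a 95% interval of -0.21 to 0.30) and on 225609_at (0.07). GPX4, the selenoenzyme that reduces lipid hydroperoxides with glutathione and guards against ferroptosis, had 8.54 and 8.72 with EDHB against 8.60 and 8.35 in untreated cells (201106_at). The GPX4 groups overlapped too, and the within-replicate changes had opposite signs, -0.06 in replicate 1 and 0.37 in replicate 2. Neither gene passed (limma adjusted p = 0.868 for GSR and 0.597 for GPX4).

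Neighbouring genes were described through 6 lists, to be read against all genes, of which both EDHB arrays lay above both untreated arrays in 23.2% and below in 22.5%, 8.8% were higher and 7.98% lower at an unadjusted p under 0.05, 1.07% were called as higher in the trend fit, and the median was -0.001. Of 18 measured genes of the gamma-glutamyl cycle, glutathione transport and its peptidases, both EDHB arrays lay above both untreated ones in 3 and below in 4, shares near those of all genes, with a median of 0.02. CHAC2, the paralogue of CHAC1, differed by -0.19 (limma adjusted p = 0.338), and it and SLC3A2 were picked after their values were seen. Of 20 genes of the methionine cycle and cysteine catabolism, 6 lay above and 3 below, with a median of 0.04. In neither list was a gene called in the default or the trend fit, with 1 and 4 members higher at an unadjusted p under 0.05 in limma.

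Among 32 glutathione-using enzymes, 11 lay above and 7 below, the count below being near the 22.5% of all genes, with a median of -0.02 and 0 called by default limma, where 3 were higher and 2 lower at an unadjusted p under 0.05. GLRX, the cytosolic glutaredoxin, had log2 levels of 7.33 and 7.50 with EDHB against 6.73 and 6.50 in untreated cells, 1.74-fold higher. GPX8, a peroxidase of the endoplasmic reticulum, had 9.47 and 9.55 with EDHB against 8.90 and 9.01 in untreated cells, 1.47-fold higher, whereas its other restored probe set was higher by 0.21 on the log2 scale. GLRX and GPX8 passed in the trend fit (adjusted p = 0.0376 and 0.0288). GPX1, a cytosolic peroxidase of the same family as GPX4, differed by -0.07 (limma adjusted p = 0.734).

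The regulators, pooled whether they activate or repress, gave a median of 0.48 over 11 measured genes, with both EDHB arrays above in 9 and below in 1. The 1 below was ATF5, which differed by -0.28 (limma adjusted p = 0.202). ATF4 had log2 levels of 11.12 and 11.24 with EDHB against 10.64 and 10.55 in untreated cells, 1.50-fold higher (limma adjusted p = 0.115, trend fit 0.0227). The pseudokinase TRIB3, an ATF4 target, was higher by 0.76 and also passed in the trend fit (adjusted p = 0.0318). The stress factor NUPR1 was higher by 1.47 with 0.91 within replicate 1 and 2.03 within replicate 2. DDIT3 was higher by 0.59 (0.31 within replicate 1 and 0.87 within replicate 2). MAFF was higher by 0.57 (0.96 within replicate 1 and 0.19 within replicate 2). NUPR1, DDIT3 and MAFF did not pass in either fit. NFE2L2, which encodes NRF2, differed by 0.14 (limma adjusted p = 0.450), and its 2 other restored probe sets went the other way, by -0.19 and -0.01.

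Of 18 measured NRF2 targets outside glutathione synthesis, both EDHB arrays lay above both untreated arrays in 15 and below in 0, with a median of 0.19. UGDH, which makes UDP-glucuronate, was 1.51-fold higher and passed in the trend fit (adjusted p = 0.0288), and the epoxide hydrolase EPHX1 was 1.50-fold higher and did not (0.0842). The malic enzyme ME1, which makes NADPH, was 1.23-fold higher and was the other target to pass in the trend fit (adjusted p = 0.0446). The 16 measured genes of serine synthesis and one-carbon metabolism had a median of 0.03, with 5 above and 2 below. Within that list the serine synthesis enzymes PHGDH and PSAT1 were 1.67-fold and 1.65-fold higher and passed in the trend fit (adjusted p = 0.0378 and 0.0161). PSPH, of the same route, differed by 0.22 with groups that overlapped (limma adjusted p = 0.499). By default limma 0 genes of any of the 6 lists were called, and the trend fit called 8 in all, counting a gene once, all of them higher. That count of 8 became 0 in the trend fit with the replicate block, where 0 of 19751 genes passed. No test compared these lists with the members, and the lists and the members were chosen with earlier results known.

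**Figure D3:**
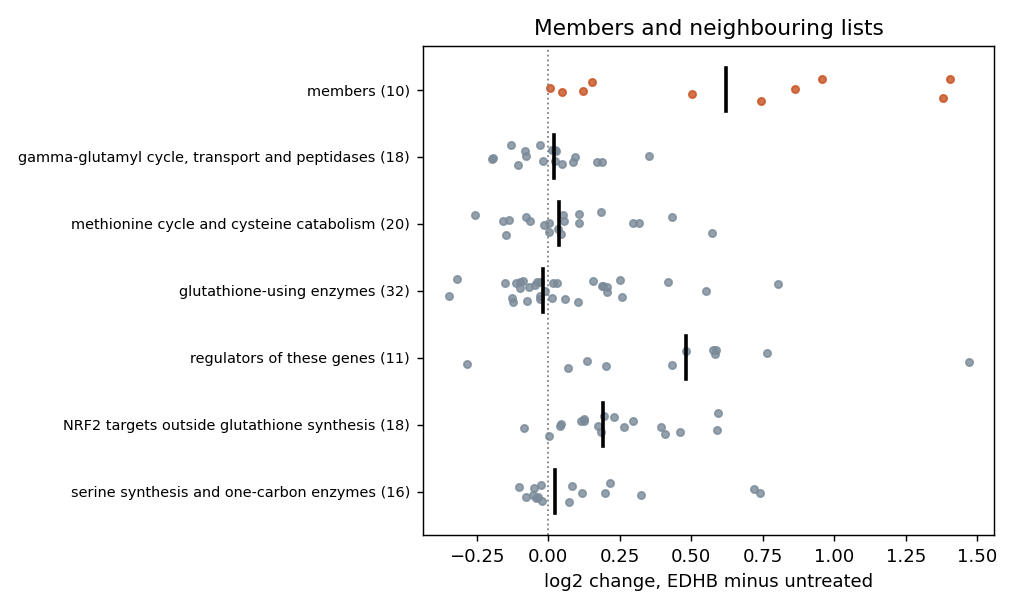
Log2 change of EDHB minus untreated (horizontal axis) of each measured gene (points) in the 10 members (orange, top) and 6 neighbouring lists (grey), with each list's median (black bar), its number of genes in brackets and the median of all genes (dotted line). The median of the members is 0.62 and that of the regulators 0.48, while those of the gamma-glutamyl cycle, the methionine cycle, the glutathione-using enzymes and serine synthesis lie between -0.02 and 0.04.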

How the data were processed

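Per the labels' protocols, biotin-labelled cRNA from total RNA of KYSE170 cells was hybridised to Affymetrix arrays, 2 with EDHB and 2 untreated. The deposited values were linear intensities that the submitters' processing notes credit to RMA, whose software is not given in the sources used here. This method subtracts background, equalises the arrays' distributions and summarises probes, which compresses low levels and removes global differences. Values were turned into log2 with no offset or filter on dim genes.

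The replicate 2 columns fitted a layout in which each replicate's values at least 2-fold higher (148), at least 2-fold lower (45) and the rest (54419) had stood in ID order before a sort by the replicate 1 IDs, except that 9 values among the rest had a change of 2-fold or more. This is an inference from the values. A forward-backward alignment compared untreated log2 levels (Student's t density, scale 0.15, 3 degrees of freedom) and kept a posterior of at least 0.95. It restored 54459 of 54613 probe sets (99.7%) and 113 list values, leaving 80, so strongly changed probe sets are under-represented. The correlation of the EDHB arrays across probe sets was 0.418 as deposited and 0.997 once restored, a weak check because EDHB levels follow untreated ones. The log2 changes of the 2 replicates correlated at only 0.044 as deposited and 0.376 once restored. Of 92 restored values of the higher list 89 were higher within replicate 1, and of 21 of the lower list 18 were lower. The added restoring that also compared EDHB levels placed 54585, and of 54455 placed both ways 54448 had the same value. The alignment and the limma step were also run on simulated data. Those data were drawn from the methods' own layout and noise assumptions, so they cannot show whether the assumptions hold here.

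Gene names came from the platform annotation (41091 probe sets with 1 gene, 1801 with several, 11721 with none listed). No symbol needed updating through RefSeq identifiers, and 54 probe sets had no match. The brightest restored probe set with 1 gene stood for each of 19751 genes. Testing used limma 3.58.1 in R 4.3.3 (lmFit, eBayes, no block, 2 residual and 2.99 prior degrees of freedom), with Python 3.11.15 for the rest. Precision is limited by the number of arrays. The members and lists were chosen with earlier results of these data known. Genes of the lists were named where called by limma without the trend, or else up to 6 per list with groups that did not overlap, an absolute log2 change of at least 0.5 and a level above the median probe set, plus ATF4, NFE2L2 and GPX1. SLC3A2, CHAC2, ME1, PSPH and ATF5 were named outside this rule, after their values were seen. The alternatives changed the prior variance, block, scaling, dim genes, posterior, choice of probe sets, offset and arrays.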

Additional observations from a re-analysis of the deposited data

How the results depend on the processing

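The count of members called, 0 of 10 by default limma, became 4 with the intensity trend, 4 with dim probe sets removed, 2 with each array centred on its median, 1 with cyclic loess, 1 with 16 added to the intensities, and 5 with the trend and the EDHB levels used to restore. It was 0 with the other alternatives that kept all 4 arrays. The replicate block without the trend left the limma adjusted p of every member at 0.278 or above. Fits without 1 array left a lone array in a group, and only their changes are given. The count over the 6 lists, 0 by default, became 8 with the trend and 8 with dim probe sets removed. It was 8 with the trend and the EDHB levels used to restore, and 0 with the trend and the block. Over all genes the 2 calls became 375 (211 higher, 164 lower) with the trend. With dim probe sets removed they became 426 (265 higher, 161 lower) of the 12400 genes then tested. With the trend and the EDHB levels used to restore they became 406 (238 higher, 168 lower) of 19768 genes. They became 56 (35 higher, 21 lower) with centring, 43 (31 higher, 12 lower) with cyclic loess, 79 with the offset and 7 with the median over probe sets. The 2 calls became 0 with a posterior minimum of 0.5, with the EDHB levels used to restore and with every probe set tested. With the block 0 of all genes were called, with or without the trend. Restoring with the EDHB levels favours agreement between the EDHB arrays, so calls made with it are not independent support. Alternatives that used the EDHB levels to restore, or that joined the trend with another choice, were chosen after seeing the data. The cause of these shifts was not tested. The change of GSS turned to -0.024 with centring and -0.019 with the median over probe sets. Without 1 array, with or without the trend, it ran from -0.039 to 0.053 (-0.0083 without EDHB replicate 2), and that of GSR ran from -0.058 to 0.15. The change of GCLC was 1.31 with a posterior minimum of 0.5. No other member gene changed sign under an alternative with a test and 1 value per gene. With every probe set tested, 240517_at of CBS differed by -0.10 and 211630_s_at of GSS by -0.05. A posterior minimum of 0.99 gives no value for CHAC1. Same-numbered arrays deviated from their group means with a correlation of 0.215 across genes, and the numbers were not taken as pairs. Levels below the median probe set were not shown to be above background.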
